A study of Mus musculus with 7 samples.

Results

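The replication-dependent histone genes of the mouse were examined for binding of CTCF and of the cohesin subunit Rad21 in male liver. The members are all autosomal genes whose symbol begins with Hist1h, Hist2h, Hist3h or Hist4h in the GENCODE M1 annotation of genome build NCBIM37 (mm9). This rule took 70 of 34653 annotated autosomal genes, and 67 of the 70 are annotated as protein-coding. The rule used no measured value. Peaks were taken within each gene span extended by 5 kb on each side, and neighbouring genes often share them.

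The study performed chromatin immunoprecipitation and sequencing (ChIP-seq) on liver of untreated male CD-1 mice (Crl:CD1(ICR)), 8 weeks of age, with 4 CTCF libraries (Millipore antibody) and 3 Rad21 libraries (Abcam antibody). All mice belong to 1 group, and no second condition, genotype or treatment was compared. The authors merged the reads of each factor before they called peaks, so each value below is 1 pooled value with no error between replicates, and no test between samples was possible. Liver is a mixture of cells in which most hepatocytes do not divide, and the lists give no value for the share of cells in S phase. A peak score is 10 times the −log10 of the q-value of the peak. The fold is the number of fragments at the summit over a local background, and the summit fragments were recovered from the fold and the p-value.

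Replication-dependent histone genes encode the core histones H2A, H2B, H3 and H4 and the linker histone H1 that package newly made DNA during S phase. They lie in clusters, have no introns as a rule, and their messengers end in a stem-loop bound by SLBP rather than in a poly(A) tail. CTCF is a zinc finger protein that binds a directional DNA motif. Cohesin is a ring-shaped complex that CTCF can halt on DNA, and sites with both factors (cohesin-and-CTCF, or CAC, sites) with motifs that face each other often mark the ends of chromatin loops. The study sorted CTCF peaks found in at least 2 livers into anchors of topologically associating domains (TADs), intra-TAD anchors, other CAC sites and lone CTCF sites.

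The sequence features of the members bear on their label. The histone stem-loop pattern was present on the gene strand within 300 bp of the annotated gene end in 48 of the 70 members, and within 300 bp of the gene end or of the stop codon in 59 (84.3%). Of all autosomal protein-coding genes 0.238% held it at the gene end. That share is 51 genes, of which 47 are members. The most common form, shown because it marks this class of genes, occurred in 37 members.

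Stem-loop: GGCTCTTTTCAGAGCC

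The 11 members with no match were Hist1h2aj, Hist1h2an, Hist1h2bp, Hist1h2bq, Hist1h2br, Hist1h2al, Hist1h3g, Hist1h4a, Hist2h2be, Hist2h2bb and Hist2h3c2. A CCAAT box, searched on both strands from 250 bp before to 50 bp after the start, was present in 59 members (84.3%) against 37.6% of all autosomal protein-coding genes. By family, 6 of 6 H1, 19 of 20 H2A, 19 of 19 H2B and 11 of 12 H3 genes had it, but only 4 of 13 H4 genes. The octamer ATTTGCAT, searched likewise, was present in 16 members (22.9%) against 1.73%, and those 16 were H2A and H2B genes.

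Many H2A genes held a CTCF motif match inside their coding sequence. A 19-base CTCF motif was learnt from TAD anchors, with a score threshold of 10.9 that 5.03% of shifted flanking windows and 91.6% of held-out TAD anchors reached. It was matched in the coding sequence of 17 of the 19 H2A members that have one annotated. No H1, H2B, H3 or H4 member reached the threshold there, with a highest score of 10.43 in the H2B gene Hist2h2be. Of all autosomal protein-coding genes, 7.48% held a match that reached the threshold in the 390 genomic bases from the start codon. The sites are shown because in 5 H2A genes a CTCF summit lies on each side of the match, whose part in that was not tested. Capitals mark the 19 motif bases, read 5′ to 3′ on the strand of the motif, which is opposite to the gene.

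Hist1h2ab, chr13:23843240-23843258, minus strand: tggccAGCTGCAGGTGGCGCGGGAtgatg
Hist3h2a, chr11:58768478-58768496, minus strand: tggccAACTGCAGGTGGCGCGGGAtgatt
Hist2h2ac, chr3:96024511-96024529, plus strand: tggccAGCTGCAGATGGCGCGGGAtgatg
Hist1h2aa, chr13:24026569-24026587, minus strand: tggccAGCTGCAGGTGGCGAGGAGtaatg
Hist2h2ab, chr3:96024077-96024095, minus strand: cagctAGTTGCAGATGGCGCGGGAtgatg

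The capitals of Hist1h2ab were identical in 15 H2A members with a coding sequence and in the pseudogene Hist1h2aj. Hist3h2a and Hist2h2ac each differed from them at 1 base, Hist2h2ab at 2 and Hist1h2aa at 3. The learnt score was 12.36 for the shared bases and 13.44 for Hist3h2a, whereas Hist1h2aa (7.47) and Hist2h2ab (4.36) fell under the threshold. In 14 of the 15 members the centre of the match lay 247 bp from the first base of the start codon.

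The share of histone genes with a CTCF peak nearby was close to that of all genes. The share with a Rad21 peak was lower over all 70 members. Among the 17 members with at least 90% unique 50-base stretches over the span and 500 bp on each side, 76.5% had Rad21. That share was not lower, but some of these 17 have long spans and so wider windows. A CTCF peak lay in the windows of 52 members (74.3%), where 76.5% of all autosomal protein-coding genes had one. Rad21 peaks lay in the windows of 29 members (41.4%) against 72.7% of those genes. CAC peaks, meaning overlapping CTCF and Rad21 peaks, were present for 28 members (40.0%) against 71.2%, though for 12 of the 17 members with at least 90% unique stretches (70.6%). Rad21 without CTCF, a cohesin-non-CTCF (CNC) peak, was present for 6 members (8.57%) against 26.1%. A Rad21 peak with no CTCF summit closer than 100 bp to its own was present for 12 members (17.1%) against 43.6%. CTCF without Rad21 went the other way, with 43 members (61.4%) against 45.9%. An anchor of the class list lay in the windows of 13 members (18.6%) against 34.6%, and 18 members (25.7%) had no peak of either list against 22.8%. Histone genes are short, so windows of 5 kb on each side of the gene start were also counted. These gave 72.9% with CTCF against 66.4% of all genes, 37.1% with Rad21 against 62.1%, 35.7% with a CAC peak against 59.8%, 8.57% with a CNC peak against 12.2%, and 58.6% with CTCF without Rad21 against 20.4%. Members are not independent of each other, since they share peaks, and these shares were not tested. With windows of 10 kb on each side, 47 members (67.1%) had a Rad21 peak against 76.9% of all genes and 46 (65.7%) a CAC peak against 75.7%, smaller gaps than at 5 kb.

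**Figure D1:**
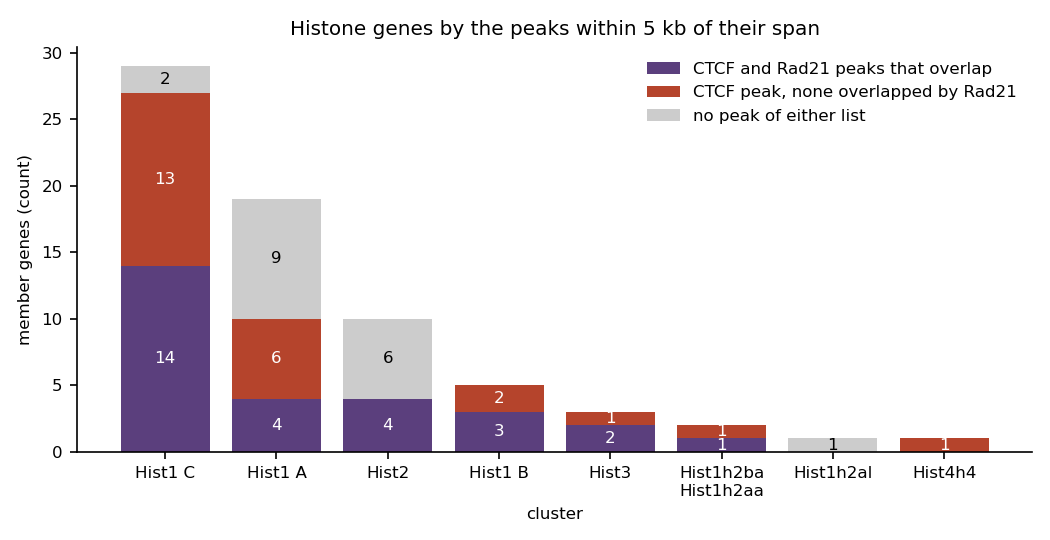
Number of member genes in each cluster (bars, count), split by the peaks within 5 kb of the gene span. The Hist1 C cluster has 27 of its 29 genes with CTCF, whereas 9 of 19 genes of Hist1 A and 6 of 10 of Hist2 had no peak of either list.

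The windows held 48 distinct CTCF peaks and 22 distinct Rad21 peaks over 386.0 kb. Of the CTCF peaks 30 (62.5%) had no overlapping Rad21 peak, against 32.6% of all autosomal CTCF peaks. Of the Rad21 peaks 19 overlapped CTCF and 3 (13.6%) did not, against 22.9% of all autosomal Rad21 peaks. The 18 CTCF peaks with Rad21 had a median score of 507 (range 32 to 6180) and a median of 93.5 summit fragments. The 30 without Rad21 had a median score of 155 (range 38 to 2524) and a median of 47 summit fragments. The 2 ranges overlapped widely. Over the whole CTCF list the median score was 777 for peaks with Rad21 and 107 for those without.

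By the deposited classes, the CTCF peaks comprised 2 TAD anchors, 4 intra-TAD anchors, 8 other CAC sites and 13 lone CTCF sites, and 21 were not in the class list. Anchors were thus 12.5% of these peaks, against 19.6% of all autosomal CTCF peaks. The unlisted share was 43.8% against 31.7%. A deposited motif was present at 11 of the 14 listed sites with Rad21 (78.6%) and at 2 of the 13 without (15.4%). Over all autosomal sites of the class list these shares were 82.8% and 81.8%, and the difference at the sites without Rad21 was not tested. Since the study used cohesin binding to set its classes, the classes do not count as independent of the Rad21 overlap.

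**Figure D2:**
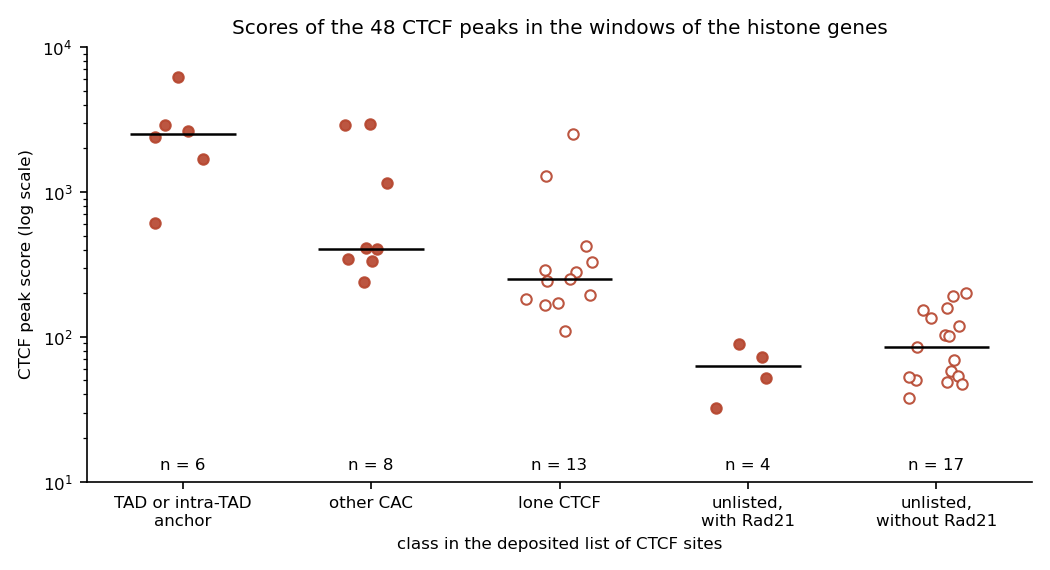
Scores (log axis) of the 48 CTCF peaks in the windows, by class in the deposited list; filled points overlap a Rad21 peak, open points do not, and lines are medians. Anchors had a median of 2517.5, and 2 of the 13 lone CTCF sites, at 2524 and 1290, reached the range of the anchors.

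Unique mapping was measured because histone genes have near-identical copies and the authors kept uniquely mapped reads. For each gene the share of its 50-base stretches that occur once in the genome was counted. Over the span and 500 bp on each side the median of the members was 78.9% (range 0.0 to 100.0%). In the first 450 bp of a gene 10 of 67 protein-coding members reached 90% unique stretches, against 86.0% of all autosomal protein-coding genes. A read whose 50 bases occur more than once cannot be placed uniquely, so signal in such sequence can come only from reads placed in unique sequence beside it. The 17 members with at least 90% unique stretches had CTCF in 16 cases (94.1%) and Rad21 in 13 (76.5%). Of all autosomal protein-coding genes, whatever their unique share, 76.5% had CTCF and 72.7% had Rad21, so the Rad21 share of these 17 members was near that of all genes. The other 53 had CTCF in 36 cases (67.9%) and Rad21 in 16 (30.2%). Among the 18 members without any peak the unique share had a median of 48.7% (range 0.0 to 99.4%), against 82.9% (range 38.2 to 100.0%) in the 52 with a peak. The unique share covers the annotated span, so a member with a long span can reach 90% with few unique stretches in its coding sequence. Hist1h2be (37383 bp, 93.8%) and Hist1h2bc (8290 bp, 94.3%) did so, with 17.3% and 2.4% of the coding sequence unique. Long spans also give wide windows, and the 17 members were not counted in windows of fixed length. The parts of unique mapping and of span length in these counts were not tested.

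The members fell into 8 groups when a gap of more than 100 kb was taken to separate them. Hist1 on chromosome 13 split into a cluster of 19 genes from Hist1h2bl to Hist1h2br (Hist1 A, chr13:21807632-21929399), a cluster of 5 genes from Hist1h2ah to Hist1h2bj (Hist1 B, chr13:22126982-22135545) and a cluster of 29 genes from Hist1h4h to Hist1h1a (Hist1 C, chr13:23622919-23856283). The Hist1h2ba and Hist1h2aa pair and Hist1h2al alone stood apart on that chromosome. Hist2 (10 genes, chr3:96023839-96082924), Hist3 (3 genes, chr11:58762413-58770176) and Hist4h4 (chr6:136752589-136752900) completed the set. The motif sites of the anchors at the cluster edges, and of 1 inside Hist1 A, are shown because their strand gives the direction each faces. Capitals mark the best match to the learnt motif, on the strand the authors deposited.

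Hist1 A, left TAD anchor, chr13:21801958-21801976, plus strand: ttccgACCAGTAGGGAGCAGCACTgatcc
Hist1 A, intra-TAD anchor near Hist1h4j, chr13:21826144-21826162, minus strand: ggatgGCCACTAGAGGGCACTCTTgacta
Hist1 B, right TAD anchor, chr13:22142985-22143003, minus strand: tcacgGGCTCCAGGGGGCGCTGCGggcag
Hist1 C, left TAD anchor, chr13:23616679-23616697, minus strand: ggccaGCCACATGAGGGCGCCAGAgagac
Hist1 C, right TAD anchor, chr13:23884544-23884562, plus strand: tgctgACCAGTAGGTGGCAGTCTTgtatt
Hist2, left TAD anchor, below the motif threshold, chr3:96023246-96023264, minus strand: ctttgACCTCTAGGAGGTGTCTGCcacca
Hist2, right TAD anchor, chr3:96082442-96082460, plus strand: agatgACCACGAGATGGCGCCAGCgagtc

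Hist1 A and Hist1 B lay between TAD anchors whose motifs faced each other. The left anchor, 5.7 kb before Hist1h2bl and just outside its window, had a CTCF score of 4451 and an overlapping Rad21 score of 259, with its motif on the plus strand. The right anchor, 7.5 kb past the last gene of Hist1 B, had a CTCF score of 4113 and a Rad21 score of 216, with its motif on the minus strand. The distance between them was 341.0 kb. Within this interval, an intra-TAD anchor 0.83 kb before Hist1h2bl (CTCF 2390, Rad21 307, plus strand) faced another at Hist1h4j, 18.5 kb into the cluster (CTCF 2886, Rad21 855, minus strand), and Hist1h2bl, Hist1h2ai, Hist1h3h, Hist1h2aj and Hist1h2bm lay between these. Further intra-TAD anchors stood in the 197.6 kb between the clusters (CTCF 4128 and 5753, both on the plus strand) and 0.66 kb past Hist1h2bj (CTCF 1697, Rad21 251, minus strand). No contact was measured here, and the facing is a description of motif strands.

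Past Hist1h4j the windows of Hist1 A held no Rad21 peak. Its CTCF peaks all lay at Hist1h1b, Hist1h3i and the Hist1h2an and Hist1h2bp pair, with scores of 50, 280, 103 and 194. No peak of either list lay in the windows of Hist1h4k, Hist1h2ak, Hist1h2bn, Hist1h2bq, Hist1h2ao, Hist1h4m, Hist1h4n, Hist1h2ap and Hist1h2br. The last 6 of these form a duplicated segment in which 0.0 to 11.4% of the stretches were unique. Hist1h4k, Hist1h2ak and Hist1h2bn, at 78.5%, 74.7% and 69.7%, were as unique as Hist1h2ae (70.1%) or Hist1h3b (78.0%), both of which had CTCF peaks. Hist1h2bh (75.1%) and Hist2h3b (75.7%), in other clusters, had no peak of either list. The part of unique mapping in this was not tested.

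Hist1 B was small and flanked on both sides. A CTCF peak with a score of 9332 and a Rad21 score of 3461 lay 6226 bp from the span of Hist1h2ah, outside its window and above every CTCF score inside the windows, and it had no motif in the class list. Inside the windows, Hist1h2ah had summits of 165 and 250 and Hist1h2ag had 192, all without Rad21. The other members, Hist1h2bk, Hist1h4i and Hist1h2bj, shared those peaks or the intra-TAD anchor. A further CTCF peak of 153, with a learnt motif score of 14.79, lay 4491 bp from the span of Hist1h2ah.

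In Hist1 C the outer TAD anchors faced away from the genes. The left anchor (CTCF 4297, Rad21 1494, minus strand) lay 6.24 kb before Hist1h4h and the right (CTCF 3505, Rad21 1927, plus strand) 28.3 kb past Hist1h1a, 267.9 kb apart. Inside the cluster were 2 intra-TAD anchors on the plus strand, at 99.8 kb (CTCF 3453, Rad21 1044) and at 170.3 kb from the first gene (CTCF 2645, Rad21 3197), and a TAD anchor on the minus strand at 201.6 kb (CTCF 2827, Rad21 2038). The peak at 170.3 kb, 2.9 kb upstream of Hist1h4c, had the highest Rad21 score in any window, above its own CTCF score. The plus-strand anchor at 170.3 kb and the minus-strand anchor at 201.6 kb faced each other with no histone gene start between them. A CAC peak inside the long annotated span of Hist1h2be, an H2B gene, had the highest CTCF score of the windows of Hist1 C, 2899, with a Rad21 score of 1213 and a deposited minus-strand motif. Hist1h2be also had the most peaks, 6 CTCF and 4 Rad21, over an annotated span of 37383 bp that runs far past its coding sequence.

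**Figure D3:**
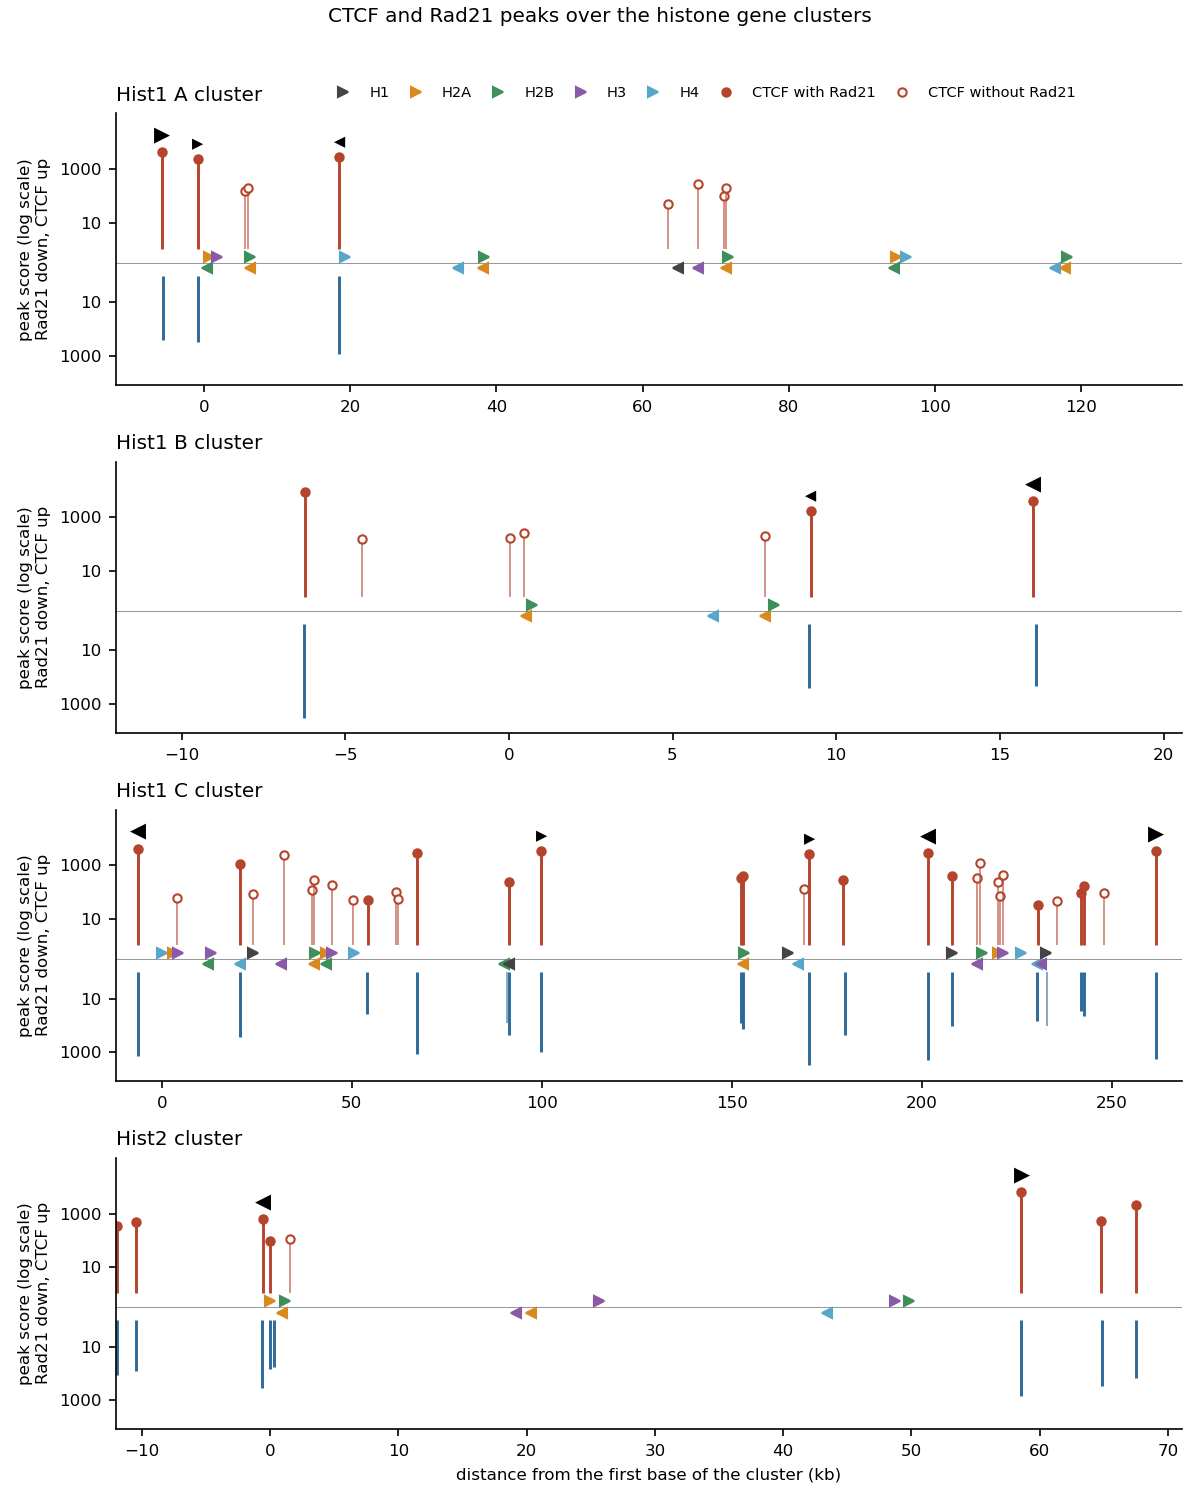
Peaks over the 4 larger Hist1 and Hist2 clusters, with distance from the first base of the cluster in kb; CTCF scores rise above the line and Rad21 scores fall below it, both on a log scale. Coloured triangles are gene starts pointing along the gene, and black triangles give the motif strand of TAD anchors (large) and intra-TAD anchors (small), which face inward at the outer edges of Hist1 A and Hist1 B and outward at those of Hist1 C and Hist2, the left edge of Hist2 by a weak motif.

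Hist2 showed the same outward arrangement over a shorter distance. Its left edge was a TAD anchor 0.55 kb before Hist2h2ab (CTCF 607, Rad21 375, minus strand), the weakest anchor in the windows, and its right edge a TAD anchor within the annotated span of Hist2h2bb (CTCF 6180, 722 summit fragments, Rad21 750, plus strand), the highest CTCF score in any window. They lay 59.1 kb apart. The strand of the left edge rests on a weak motif, with a deposited score of 8.80 and a learnt score of 4.13, below the threshold of 10.9. Hist2h2ab, Hist2h2ac and Hist2h2be shared the peaks of the left edge. The 6 genes between, Hist2h3c2, Hist2h2aa2, Hist2h2aa1, Hist2h3c1, Hist2h4 and Hist2h3b, had no peak of either list. The unique share was 22.8 to 51.9% in the first 4 of these and 75.7% in Hist2h3b. It was 99.4% in Hist2h4, the only member with at least 90% unique stretches and no CTCF peak.

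Hist3 had its strongest peak on a coding sequence. The CAC peak of Hist3h2a (CTCF 2932, 347 summit fragments, fold 17.2, Rad21 751) also lay in the window of the neighbouring pseudogene Hist3h2bb-ps. A second CAC peak lay 3683 bp past the span of Hist3h2a (CTCF 343, Rad21 56). Hist3h2ba had only a CTCF peak of 38, which is 20 summit fragments, 3615 bp upstream.

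The isolated genes had few and low peaks. Hist1h2ba and Hist1h2aa, testis-type H2B and H2A genes, had CTCF peaks of 73 and 53 more than 2 kb from Hist1h2ba, and the first overlapped a Rad21 peak of 128. Hist1h2al had none in its window, and its nearest CTCF summit lay 7737 bp from its start. Hist4h4 had a CNC peak of 25 at 369 bp upstream of its start, the lowest Rad21 score in the windows. Its CTCF peak of 171, 3998 bp upstream, had its summit 37 bp into the coding sequence of the neighbouring H2afj, a replacement H2A gene.

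By family, CTCF and Rad21 peaks lay in the windows of 6 and 5 of the 6 H1 genes, 14 and 6 of the 20 H2A genes, 15 and 8 of the 19 H2B genes, 8 and 2 of the 12 H3 genes, and 9 and 8 of the 13 H4 genes, where 76.5% of all genes had CTCF and 72.7% had Rad21. CTCF summits lay on or within 100 bp of the coding sequence of 8 of 19 H2A genes, 4 of 11 H3 genes, 3 of 6 H1 genes, 1 of 13 H4 genes and 1 of 18 H2B genes. Counted from 100 bp before the start codon to 100 bp past the first 390 genomic bases, a summit was present in 17 of 67 members (25.4%) against 21.2% of all autosomal protein-coding genes. At gene starts, a CTCF summit lay within 1 kb of 33 members (47.1%), against 52.0% of all autosomal protein-coding genes, and a Rad21 summit within 1 kb of 15 (21.4%) against 49.6%. A CTCF summit without Rad21 lay within 1 kb of 22 members (31.4%) against 7.97%. Neighbouring members can share such a summit, so the 22 are not independent. The CTCF peaks of the windows had a median score of 193, against 321 over the whole list, and this contrast was not tested.

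H2A proteins pair with H2B in the nucleosome. At 5 H2A genes the CTCF summits came in pairs, at the start codon and near the stop codon. The second summit lay past the coding sequence in 4 of them and inside it in Hist1h2an. Hist1h2ab had summits at 12 and 407 bp from the first base of the start codon, with scores of 243 and 69. Hist1h2ac had them at 1 and 404 bp, with scores of 407 and 333. Those of Hist1h2ae lay at −3 and 410 bp with scores of 290 and 118, those of Hist1h2ah at −11 and 395 bp with 250 and 165, and those of Hist1h2an at −18 and 369 bp with 194 and 103. The 2 summits of a gene were 387 to 413 bp apart (median 403 bp), and the summit at the start codon had the higher score in each of the 5 genes. Hist1h2ag had only the first, at −19 bp with a score of 192. Only the summits of Hist1h2ac overlapped Rad21, with scores of 135 at the start codon and 82 at the stop codon. Of these 11 summits 7 were in the class list, all without a motif there, and 4 were not listed. The pseudogene Hist1h2aj, with no coding sequence annotated, also had a pair, with scores of 202 and 157, on both sides of its copy of the motif.

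The motif match of these genes lay between the paired summits. The shared 19 bases occurred at 18 places in the whole genome, of which 16 were in members. No CTCF peak covered all 19 bases in any of the 16. The peak at the stop codon reached 12 bases into the match in Hist1h2ac and 6 bases in Hist1h2an, and no CTCF peak touched the other 14. The share of unique 50-base stretches centred within 100 bp of the match was 0.0% in 12 of the 16 and at most 50.2%. In Hist1h2ac the run of non-unique stretches reached from 138 to 368 bp from the start codon, and in Hist1h2ae from 135 to 370 bp, so that both summits lay outside the run. In Hist1h2ah it reached from 36 to 358 bp and in Hist1h2ab from 121 to 366 bp, again with both summits outside.

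Both other copies of the shared bases were covered by a CTCF peak over all 19 bases. In the replacement histone gene H2afx, which encodes the H2A.X variant phosphorylated at DNA breaks, the peak had a score of 3484, a fold of 16.1 and an overlapping Rad21 score of 881, and its summit lay 185 bp from the centre of the match, where 59.2% of the stretches were unique. In Gm11336, a pseudogene upstream of Hist1h2bb in Hist1 C, the lone CTCF peak had a score of 1290 and a fold of 13.02. Its summit lay 337 bp upstream of the Hist1h2bb start and 87 bp from the match, where 33.3% of the stretches were unique. The deposited motif score was 12.4 at both. Hist3h2a, which differs by 1 base and has 79.1% unique stretches at the match, had a single summit at 228 bp from its start codon, 19 bp from the centre of the match, with a deposited motif score of 13.5 on the minus strand.

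Some copies with unique stretches near the match had no CTCF summit on the coding sequence. These were Hist1h2ak at 50.2%, Hist1h2al at 27.9% and Hist1h2af at 24.9%, with the same 19 bases, and Hist2h2ac at 49.8% with 1 differing base. The covered matches had 33.3% (Gm11336), 59.2% (H2afx) and 79.1% (Hist3h2a). The part of unique mapping in this difference was not tested. Hist1h2aa, with 97.5% unique stretches at the aligned site and a match below the threshold, had no CTCF summit there. Hist2h2ab, also below the threshold, had a CAC summit at 9 bp from its start codon with a score of 89. In the 12 copies with no unique stretch within 100 bp of the match, no uniquely mapped read could be centred there, so the absence of a covering peak does not show absence of CTCF.

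**Figure D4:**
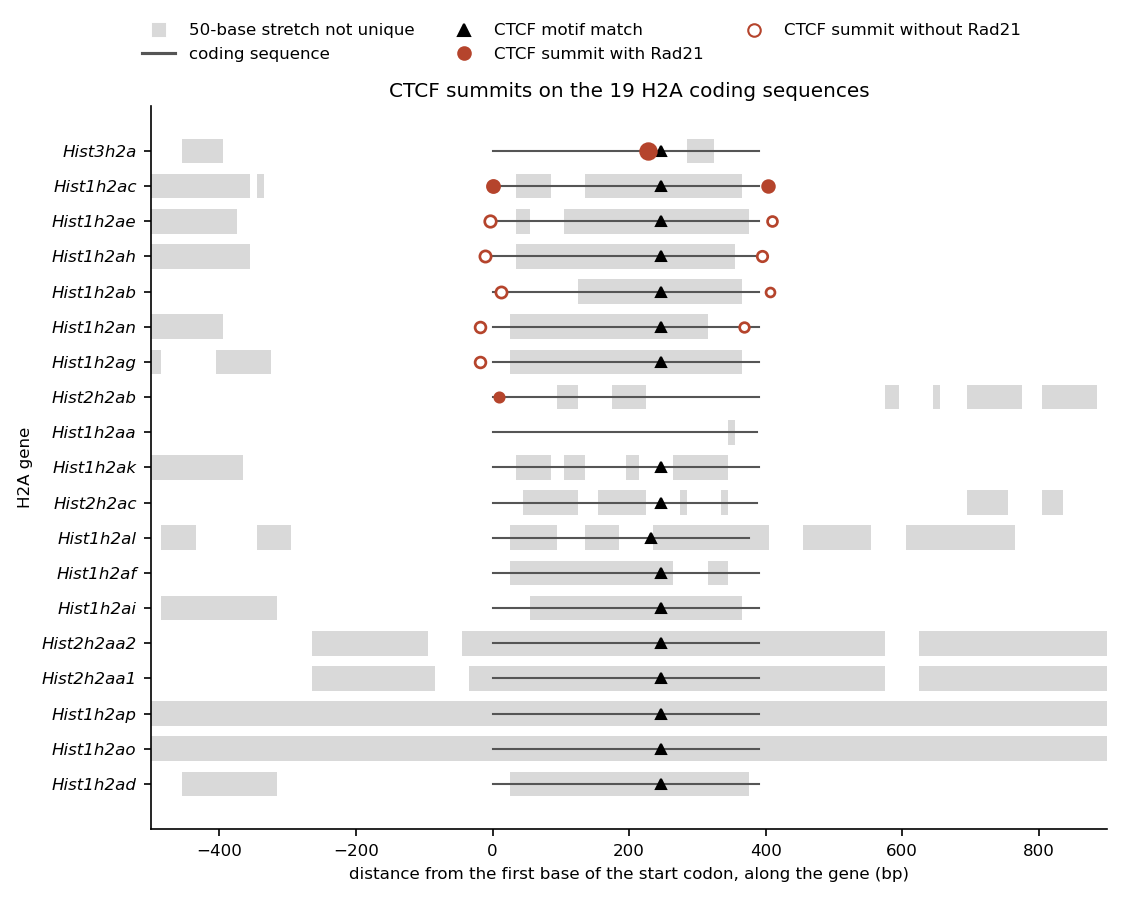
CTCF summits on the 19 H2A coding sequences, by distance from the start codon in bp; grey bars mark places where the 50-base stretch centred there is not unique, triangles the motif match, and circles CTCF summits whose size grows with the log of the score (filled with Rad21, open without). Paired summits of the Hist1 genes stand on both sides of the long grey bar over the match, and that of Hist3h2a, at 228 bp, stands beside the match.

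At 4 H3 genes a single summit lay at the start codon. Hist1h3b had it at −2 bp with a score of 421, Hist1h3c at −5 bp with 328, Hist1h3i at −9 bp with 280 and Hist1h3d at −9 bp with 183. All 4 were lone CTCF sites of the class list, none had a deposited or learnt motif, and none overlapped Rad21. The coding sequences of H3 genes were 0.0 to 33.1% unique (median 17.5%), and at every 10-bp step from 180 to 260 bp from the start codon no H3 gene had a unique stretch. Elsewhere, Hist1h3g had a CTCF summit 388 bp upstream of its start with a score of 58.

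The strongest lone CTCF peak lay near an H3 gene. It was found 917 bp upstream of Hist1h3e with a score of 2524, a fold of 19.3 and 280 summit fragments. The class list gave it no motif, the learnt motif reached only 5.9 there against the threshold of 10.9, and no Rad21 peak overlapped it. The list has no header, and with its last columns named by the order of the study’s own listing, the flag for Stag2, a cohesin subunit from public data, was set, whereas those for Stag1 and Top2b were not.

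H1 genes encode the linker histones that bind DNA between nucleosomes. They had the most unique sequence, with at least 90.9% in each of the 6 over the span and 500 bp on each side. Within their coding sequences the share was 73.5 to 100.0% (median 89.0%). Hist1h1c and Hist1h1e had CAC summits at 27 and 7 bp from the start codon, with CTCF scores of 402 and 240 and Rad21 scores of 112 and 234, and their deposited motif scores were 9.46 and 9.07, both on the minus strand. Hist1h1d had CTCF alone at 39 bp with a score of 85. Rad21 without CTCF lay at 102 bp from the start codon of Hist1h1a with a score of 106 and at 523 bp from that of Hist1h1e with a score of 85. These 2 peaks and that of Hist4h4 were all the CNC peaks in the windows, and the 6 members with a CNC peak shared them. Hist1h1b had no summit within 1 kb of its start, and Hist1h1t, a testis-type H1 gene, had its nearest CTCF summit 4143 bp away.

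H4 genes had CTCF mostly upstream. The CAC peak of Hist1h4f, at −70 bp from the start codon, had a CTCF score of 1155, a Rad21 score of 274 and a deposited motif score of 11.2 on the minus strand. Hist1h4j had the intra-TAD anchor 751 bp upstream of its start. Hist1h4d and Hist1h4a had low peaks 139 and 235 bp upstream, with CTCF scores of 49 and 32. The peak of Hist1h4a overlapped a Rad21 peak of 71.

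H2B genes had little on their coding sequences. The exception was Hist2h2be, with a lone CTCF summit at 283 bp from the start codon (score 110) and a deposited motif score of 13.3 on the minus strand. Its peak was 100.0% unique. H2B genes are often read from the same promoter region as an H2A gene. Of the 13 such head-to-head pairs, with 167 to 305 bp between the annotated starts (median 215 bp), 6 (46.2%) had a CTCF peak that reached into the space between and 2 (15.4%) had a Rad21 peak. Among all 660 head-to-head pairs of autosomal protein-coding genes with starts at most 500 bp apart these shares were 73.5% and 58.9%. In 5 of the 6 it was the peak at the start codon of the H2A gene, with scores of 192 to 407, and in the other, Hist3h2bb-ps and Hist3h2a, that of 2932. Hist3h2bb-ps is a pseudogene, whereas the 660 pairs are protein-coding. The pairs Hist1h2bq with Hist1h2ao and Hist1h2ap with Hist1h2br had no peak, and 0.0% of their stretches were unique. The contrast with all pairs was not tested.

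**Figure D5:**
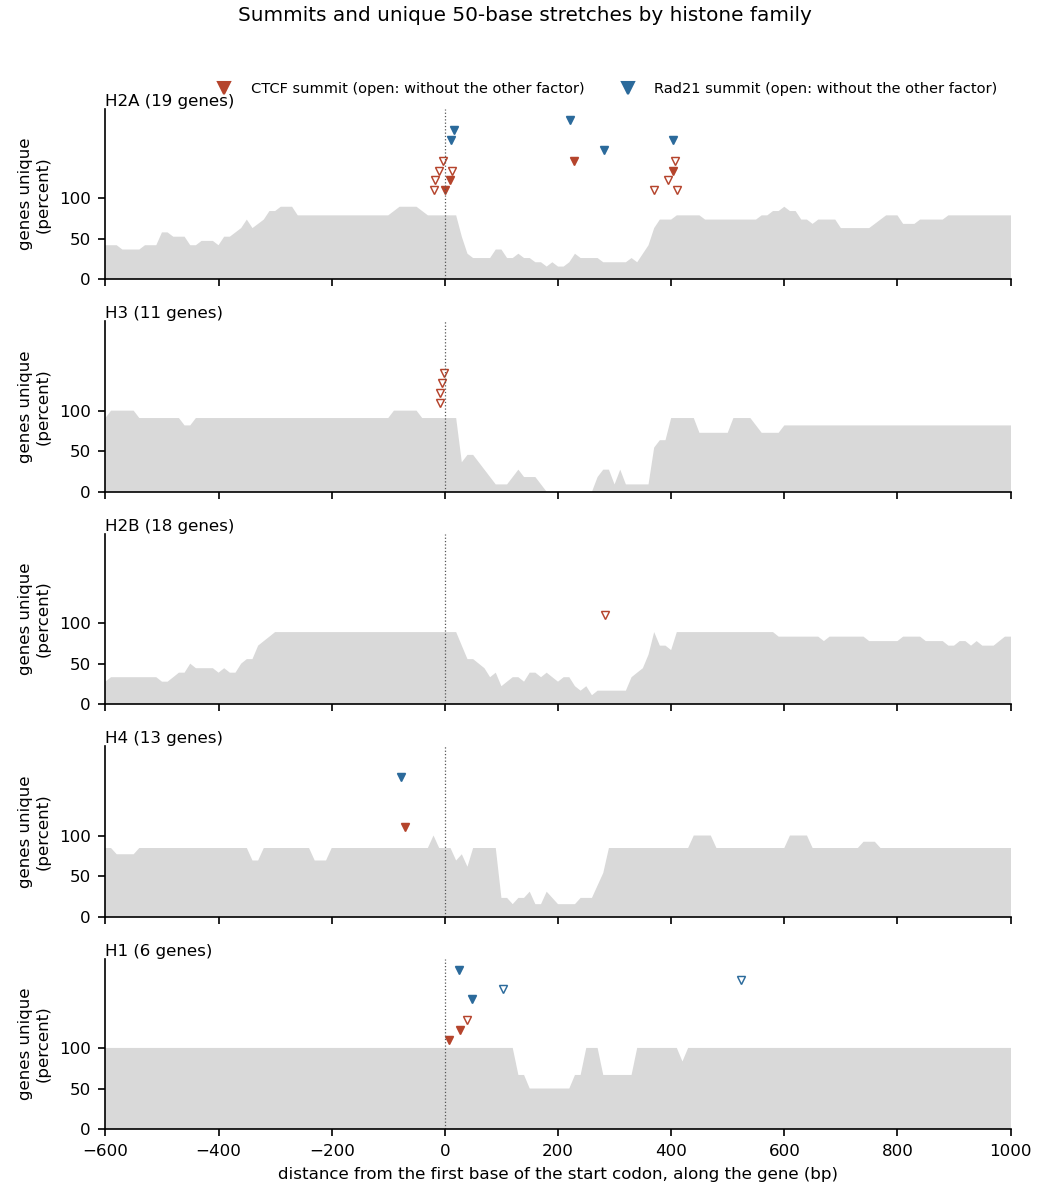
Percent of genes of each family whose 50-base stretch centred at a position is unique (grey area) by distance from the start codon in bp, with CTCF and Rad21 summits above it; open triangles are summits without the other factor, and their height only separates close ones. H2A CTCF summits stand at both ends of the coding sequence, save that of Hist3h2a within it, and H3 summits on the start side, whereas H1 genes stayed unique over most of their length.

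Genes of the same pathway outside the clusters all had peaks of both factors. All 11 replacement histone genes, whose products are also made outside S phase, and all 20 genes for regulators, messenger processing factors and chaperones had CTCF, Rad21 and CAC peaks in their windows. Most genes have such peaks, with 76.5% of all autosomal protein-coding genes for CTCF, 72.7% for Rad21 and 71.2% for CAC. A CTCF summit lay within 1 kb of the start of 10 of the 11 and of 17 of the 20, against 52.0% of all genes. The highest CTCF score was 37418, near Lsm11, a component of the U7 particle that cuts histone messengers, and the highest Rad21 score 3652, near Asf1b, a chaperone for H3 and H4. Npat, the activator of histone transcription, had a CTCF summit 109 bp upstream of its start (score 2461, Rad21 79), and Slbp, which binds the stem-loop, had a highest CTCF score of 3044 with Rad21 at up to 423. Among the replacement genes H3f3b had the highest CTCF score, 6239, and H2afy2 the highest Rad21 score, 2740. The median span was 6051 bp for the replacement genes and 18596.5 bp for the others, against 530.5 bp for the members, so the windows were not of equal length.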

How the data were processed

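Male mouse liver ChIP-seq for CTCF (4 libraries) and Rad21 (3 libraries) was used as deposited. Per the labels and the study's methods, the authors merged reads per factor, mapped uniquely to build mm9 with Bowtie2, called peaks with MACS2, and removed blacklisted and duplicate-only peaks. The deposited score is 10 times −log10 of the q-value, without decimals. As a ratio, the deposited fold sets summit pileup over local background, and the deposited −log10 p-value comes from a Poisson test of the same pair. The deposited class list adds a CTCF motif score, its strand and flags for Stag1, Stag2 and Top2b, named here by the order of the study’s listing.

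Members and lists were chosen with earlier results of these data known. Named genes follow a rule: all members of clusters with at most 5 genes, and in larger ones those nearest the 3 highest peaks of each factor, up to 10 per factor with summits within 1 kb of the start, those with most, fewest or no peaks, and the end genes; of pathway genes, those with the highest scores. Npat, Slbp, the remaining genes with coding-sequence summits and those with the shared motif bases were chosen after their values were seen. Peaks were joined to genes at an overlap of at least 1 bp. Chromosome names in the peak lists all match the NCBIM37 genome used, and 0 peaks ran past a chromosome end. Exact 50-base stretches were counted over the genome on both strands. The CTCF motif was learnt from 1000 TAD anchors and tested on 2683 others. Scripts, tested on simulated data, ran in Python 3.11.15 with pandas 2.3.3, NumPy 2.4.6, Numba 0.67.0 and pysam 0.24.0.

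Depth per library is not given by pooled peak lists. Summit fragments in the windows ranged from 20 to 722 for CTCF and 22 to 375 for Rad21, and counting error alone is larger for the lower ones. Alternatives covered windows, scores, overlap rules, unique mapping and cluster gaps.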

Additional observations from a re-analysis of the deposited data

How the results depend on the processing

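Of 28 alternatives to the counts, 22 stayed within 1.5 times the reported count. With windows of 10 kb, 47 members had a Rad21 peak instead of 29 and 46 a co-bound peak instead of 28. With summits required within 100 bp of each other, 12 members instead of 6 had Rad21 without CTCF. With a score of at least 100, 14 distinct Rad21 peaks were left of 22. Restricted to the 17 members with at least 90% unique stretches, 16 had CTCF and 13 had Rad21. As shares these are 94.1% and 76.5%, above the 74.3% and 41.4% of all members, and the Rad21 share is then no longer below the 72.7% of all genes. Some of these 17 have long spans and so wider windows, which the restriction does not allow for. Counting only class list peaks, chosen after seeing the data, left 40 members with CTCF. With gaps of more than 250 kb there were 6 clusters instead of 8. No paired analysis was possible because the lists are pooled over the libraries of each factor and their columns carry no replicate, which also means that no replicate could be left out. Low scores rest on as few as 20 summit fragments, and sites bound in sequence without unique stretches can be seen only through reads in unique sequence beside them.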
